A study of Mus musculus with 6 samples.

Results

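The transcripts described here are those of 9 genes that make, store, process or release transforming growth factor β (TGF-β), or are named for their response to it: the ligands Tgfb1, Tgfb2 and Tgfb3, the latent TGF-β binding proteins Ltbp1, Ltbp2 and Ltbp3, the protease Furin, the activator Thbs1 and the matrix protein Tgfbi. They were chosen by name, with earlier results of these data known, and their probes were found through RefSeq accessions. All 9 were measured, by 13 probes, among 29192 genes and transcripts tested. The RNA came from Lhx2 cells, a mouse line of blood stem and progenitor cells that takes its name from the LIM-homeobox gene used to make such lines, grown with stem cell factor and interleukin 6. In both groups serum was withdrawn overnight. The 3 untreated samples received nothing further and the 3 treated samples received TGF-β1 at 10 ng/ml for 2 h. Each sample was read on its own 1-colour array. The labels number the samples 1 to 3 in each group and the design describes 3 independent RNA harvests. That a number marks the same harvest in both groups is not stated. It is assumed here, because same-numbered samples deviated from their group means together, and a pair or a harvest below is the untreated and the treated sample of 1 number.

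TGF-β is made as a precursor dimer that furin cuts in the secretory pathway. The cut propeptide stays wrapped around the ligand as a latency-associated peptide, which keeps it inactive, and a latent TGF-β binding protein is often linked to that peptide and ties the complex to the matrix. Integrins, thrombospondin 1 and proteases are known to release the active ligand. In bone marrow, TGF-β is known as a restraint on the proliferation of stem and progenitor cells.

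Signal is given throughout as log2 of the background-subtracted brightness relative to the 75th percentile of the same array, so that 0 is the 75th percentile and negative values lie below it. Differences between arrays are taken within a probe. Where levels of different genes are set side by side or summed, differences between probes are not accounted for. Well above background is the scanner software's own call. The 75th percentile ran from 794.2 to 1031 brightness units and the share of spots well above background from 83.1% to 90.5%, with 3 arrays a group. All 11 measured markers of progenitor identity, among them Ptprc, Kit, Cd34 and Myb, were well above background on every array, as was Lhx2 itself. So were all 5 measured erythroid and all 5 measured endothelial markers, and 27003 of the 29192 genes and transcripts tested. The call therefore does not set progenitor genes apart. Lhx2 lay far below the 75th percentile, with a mean of -4.289 untreated and -4.245 treated. In limma's test 0 of the 11 progenitor markers passed after adjustment, with or without the block. At an unadjusted p under 0.05, 3 were higher and 5 lower with it, 2 and 1 without it. Over all 29192 tested, 3173 had such a p with the block and 1684 without it. The treatment was visible in 7 known immediate responders, all 7 of which were higher in every treated sample than in its pair. After adjustment 5 of 7 passed with the replicate number as a block and 4 of 7 without it. Among them were Smad7 (log2 change 3.56, SE 0.10, adjusted p = 0.00798 by limma) and Skil (3.46, SE 0.12, adjusted p = 0.00858), which encode a receptor-binding and a nuclear inhibitor of the pathway. The harvests differed: 8 of 15 markers of mesenchymal cells passed limma's F test over the 3 harvests at an adjusted p under 0.05. Over all genes and transcripts tested, 3.06% passed (893 of 29192). All 8 were lower in harvest 3 than in the mean of harvests 1 and 2, as were 709 of those 893. The test does not say which harvest differed, and for Col5a2 harvest 2 lay furthest from the others (harvest means -4.73, -3.54 and -5.09).

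After 2 h of TGF-β1, Tgfbi was 2.06-fold higher, Furin 1.57-fold higher and Thbs1 2.47-fold lower, each in all 3 pairs and with groups that did not overlap. Only the rise of Tgfbi passed the test that takes the pairs into account, and only the fall of Thbs1 passed the test that leaves them out. The 3 ligand genes and the 3 binding protein genes did not pass either test. Of the 9 genes, 1 was called with the replicate number as a block, against 0.651% of all genes and transcripts tested (190 of 29192; 155 higher and 35 lower). Without the block 1 of 9 was called, against 0.253% (74 of 29192). All 3 pairs had the same sign for 7 of the 9 genes (34.2% of all tested), 5 upwards and 2 downwards, and the groups of 3 arrays did not overlap for 4 of the 9 (10.4% of all tested). The median log2 change was 0.37 over the 9 genes and -0.01 over all tested.

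**Figure D1:**
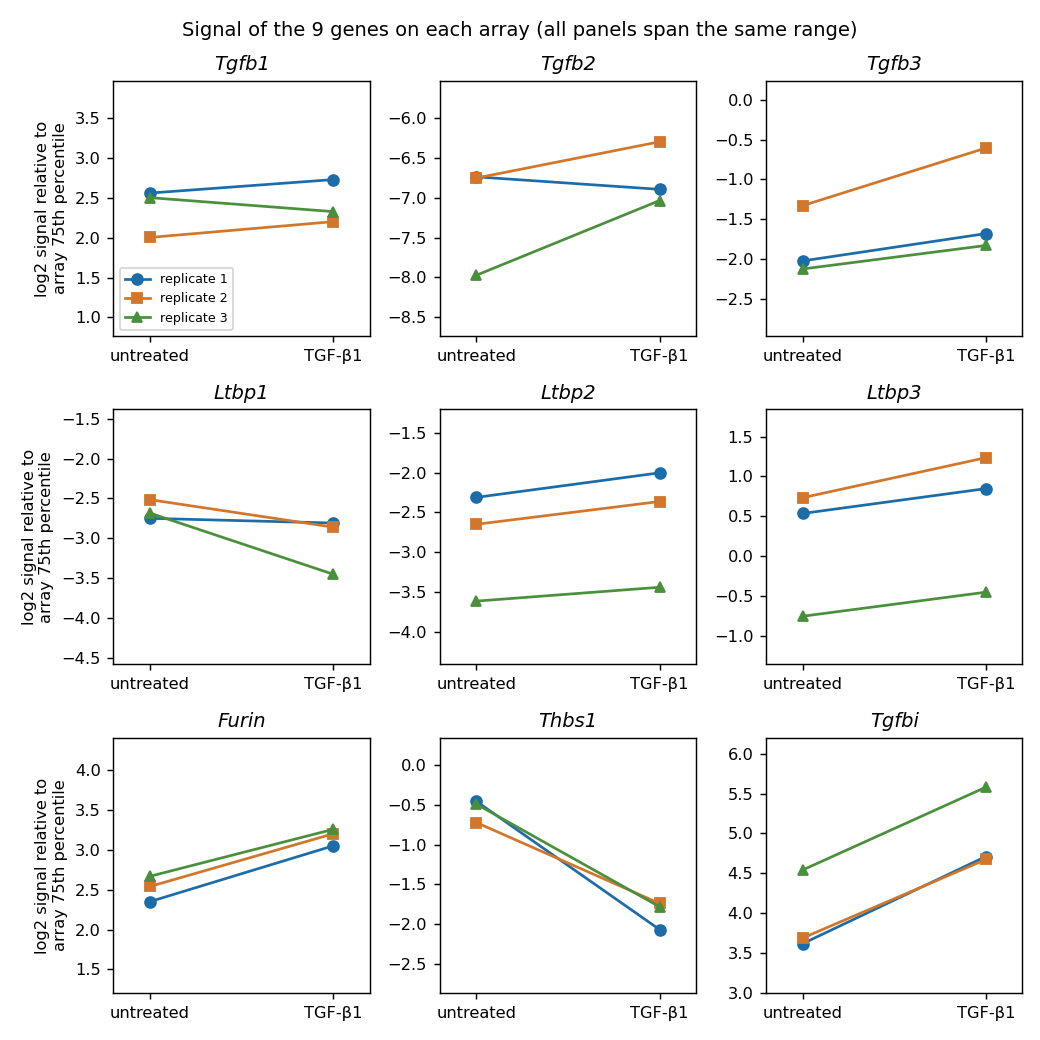
Signal of each of the 9 genes on each array (vertical axis, log2 relative to the array's 75th percentile, each panel spanning the same range), with a line joining the untreated and the treated array of 1 replicate number. Tgfbi and Furin are higher and Thbs1 lower at the treated end of all 3 lines, while for Ltbp2 and Ltbp3 both arrays of replicate 3 lie below the other 4.

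Tgfb1 encodes the form of the ligand that was added as protein and that predominates in blood cells. Its signal was 2.56, 2.00 and 2.50 in untreated replicates 1 to 3 and 2.73, 2.20 and 2.33 in the treated ones, so the groups overlapped, with pair 3 negative and pairs 1 and 2 positive. The log2 change was 0.06 (SE 0.13, n = 3 pairs, adjusted p = 0.933 by limma), with a 95% confidence interval of 0.830-fold to 1.32-fold. The arrays lay on 2 slides. Pair 3 alone was divided between them, its untreated array on slide 1 and its treated array on slide 2. Within slides 1 and 2 the log2 changes were 0.20 and 0.26, and blocking on the slide gave 0.23 (SE 0.09, adjusted p = 0.507 by limma).

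Tgfb3, the ligand known for its part in palate fusion, had -2.02, -1.33 and -2.13 without treatment and -1.68, -0.61 and -1.83 with it. It was higher in each treated sample than in its own pair, but the groups overlapped because replicate 2 was the highest in both. The log2 change was 0.45 (SE 0.13, 95% confidence interval 0.10 to 0.80, adjusted p = 0.327 by limma with the replicate block and 1 without it). Tgfb2, the ligand known for its part in heart and eye development, was near background: 2 of 3 untreated and all 3 treated arrays were well above it, with signals of -6.74, -6.75 and -7.97 against -6.90, -6.30 and -7.04. Its pairs differed in sign (-0.16, 0.46 and 0.94), and the log2 change of 0.41 (SE 0.23, adjusted p = 0.623 by limma) became -0.31 when the background was corrected with normexp.

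Ltbp1, Ltbp2 and Ltbp3 encode secreted, fibrillin-like proteins of the matrix. The products of Ltbp1 and Ltbp3 are known to bind latent TGF-β covalently, and that of Ltbp2 does not. Ltbp3 had 0.54, 0.73 and -0.76 in untreated replicates 1 to 3 and 0.85, 1.24 and -0.45 in treated ones. Every treated sample was above its untreated partner and both samples of harvest 3 were below the other 4. The log2 change was 0.37 (SE 0.11, 95% confidence interval 0.09 to 0.66, adjusted p = 0.325 by limma), and the second probe of the gene gave 0.16 (pairs 0.10, 0.02 and 0.35).

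Ltbp2 showed the same arrangement at a lower signal, with -2.31, -2.65 and -3.61 untreated and -2.003, -2.36 and -3.44 treated. The log2 change was 0.26 (SE 0.10, 95% confidence interval -0.02 to 0.53, adjusted p = 0.487 by limma), all 3 pairs were positive (0.31, 0.29 and 0.17), and with normexp the value was -0.04. Ltbp1 ran the other way, with -2.75, -2.52 and -2.69 untreated and -2.81, -2.86 and -3.45 treated. Its groups did not overlap, but pair 1 differed by -0.06 and pair 3 by -0.77, and the log2 change of -0.39 (SE 0.17, 95% confidence interval -0.83 to 0.05) did not pass (adjusted p = 0.508 by limma). The second Ltbp1 probe was well above background on 2 of 6 arrays, both of harvest 2, where the pair differed by 0.04.

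**Figure D2:**
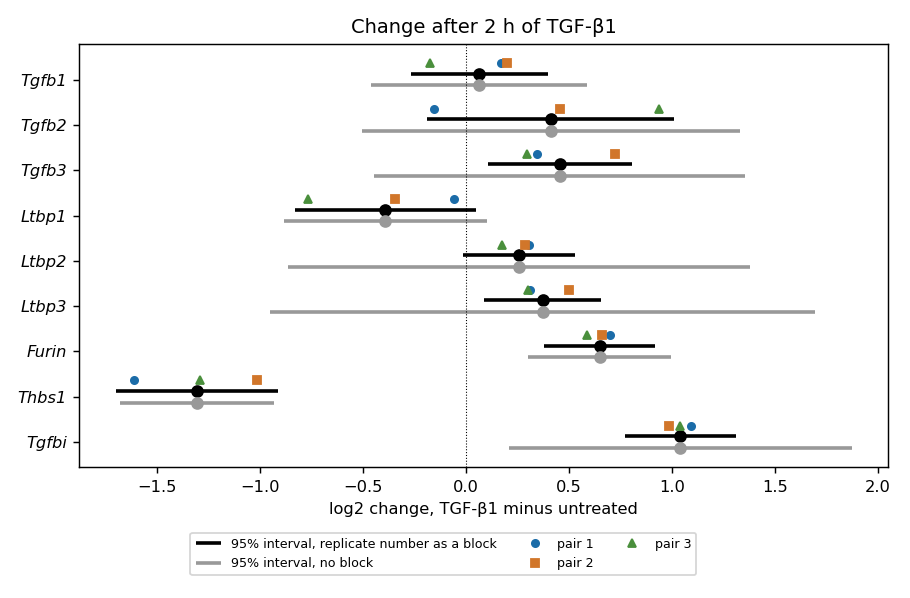
Log2 change of each gene (horizontal axis, TGF-β1 minus untreated) with its 95% confidence interval with the replicate number as a block (black) and without it (grey), and the 3 pair values as coloured marks. Before adjustment over all genes, the intervals of Tgfb3, Ltbp3, Furin, Thbs1 and Tgfbi exclude 0 with the block and those of Furin, Thbs1 and Tgfbi without it.

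Furin is the proprotein convertase that cuts the TGF-β precursors. Its signal was 2.35, 2.54 and 2.67 in untreated replicates 1 to 3 and 3.05, 3.20 and 3.26 in treated ones. All 3 treated arrays were above all 3 untreated ones and the pairs were close to each other (0.70, 0.66 and 0.59). The log2 change was 0.65 (SE 0.10), that is 1.57-fold with a 95% confidence interval of 1.30 to 1.89. Adjusted over all genes this did not pass (adjusted p = 0.103 by limma with the block and 0.249 without it). It passed on the authors' matrix values of the same arrays (0.61, adjusted p = 0.0273).

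Thbs1 encodes thrombospondin 1, a large secreted glycoprotein of platelets and matrix that is known to activate latent TGF-β by binding its latency peptide. The signal was -0.46, -0.72 and -0.49 in untreated replicates 1 to 3 and -2.07, -1.74 and -1.78 in treated ones. All 3 treated arrays were thus well below all 3 untreated ones. The gene has 3 probes, and all 3 had groups that did not overlap and negative values in every pair, with log2 changes of -1.30, -1.07 and -1.21. With the block the log2 change of the brightest probe was -1.30 (SE 0.15, 95% confidence interval of 1.88-fold to 3.24-fold lower, adjusted p = 0.0586 by limma), and without the block it was called (SE 0.16, adjusted p = 0.0437). With the block the brightest probe passed under quantile normalization (adjusted p = 0.0297), on the matrix values (0.015) and among probes well above background on all 6 arrays (0.0286). It did not pass with normexp (0.18) or with no filter on dim probes (0.116), nor did the mean of the 3 probes (0.051). One of the dimmer probes passed in a fit over all probes (adjusted p = 0.0499 with the block and 0.0381 without it). The other dimmer probe did not (0.103 and 0.129). The call without the block was lost when any 1 of the 6 arrays was left out (adjusted p between 0.0898 and 0.26). The log2 change was -1.59 within the first of the 2 array slides and -1.04 within the second, and -1.31 in a fit that blocks on the slide (adjusted p = 0.0736).

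Tgfbi encodes a secreted, integrin-binding matrix protein that takes its name from its induction by TGF-β. Its signal was 3.62, 3.69 and 4.54 in untreated replicates 1 to 3 and 4.71, 4.67 and 5.58 in treated ones. Each treated array was above every untreated array, and the highest untreated array, replicate 3, came close to the lowest treated one. The pairs differed by nearly the same amount (1.09, 0.99 and 1.04). With the block the log2 change was 1.04 (SE 0.10, 2.06-fold, 95% confidence interval 1.71 to 2.48, adjusted p = 0.0428 by limma). Without it the SE was 0.35 and the adjusted p 0.627. The call was lost without pair 1 (adjusted p = 0.221), pair 2 (0.242) or pair 3 (0.0614), while the value stayed between 1.01 and 1.07. Within slide 1, which held both untreated replicates 1 and 3 but only treated replicate 1, the change was 0.63, and within slide 2 it was 1.44. Blocking on the slide gave 1.04 (adjusted p = 0.491).

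**Figure D3:**
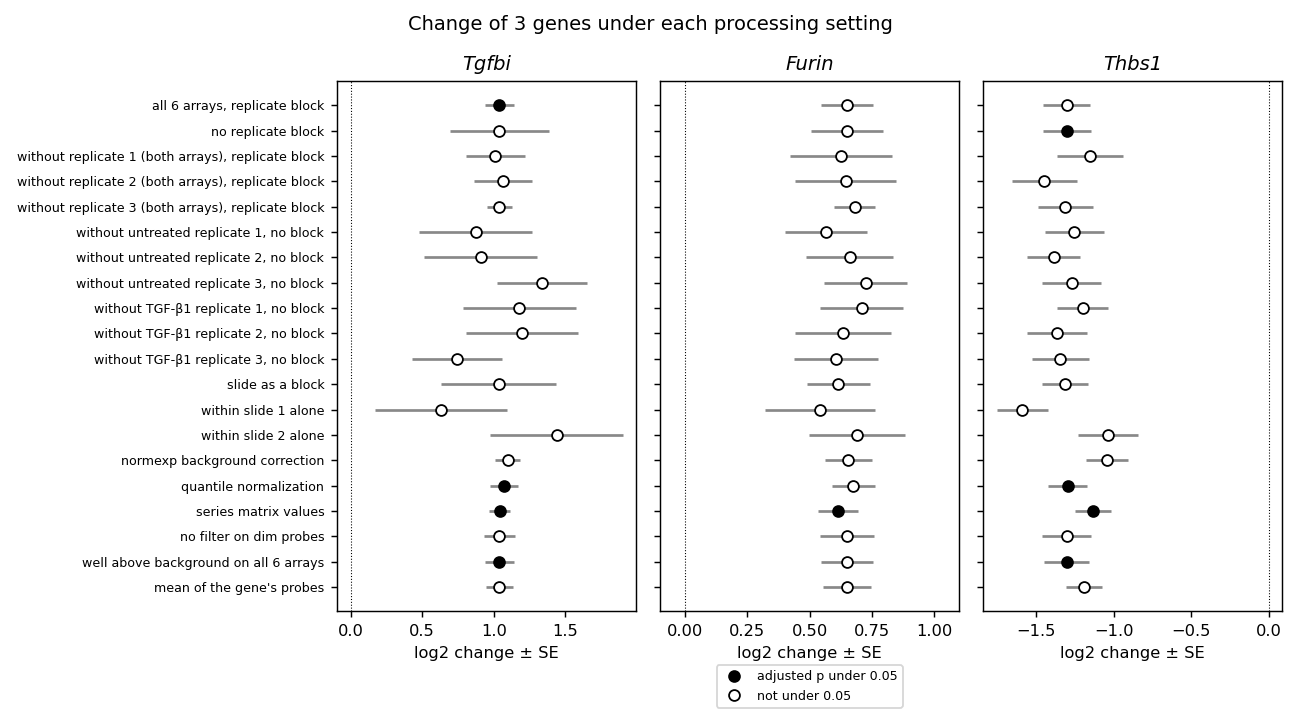
Log2 change (horizontal axis, TGF-β1 minus untreated) of Tgfbi, Furin and Thbs1 with its standard error, as reported and under 19 other settings, filled where the adjusted p over all genes was under 0.05. The change keeps its sign in every setting for these 3 genes, and the call does not.

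The promoters of Tgfbi and Furin are shown because these genes were higher on every treated array than on any untreated one, and those of Ltbp2 and Ltbp3 because these genes differed between harvests. Of the 9 genes 7 had an entry in the promoter table. The sequences are from RefSeq on build GRCm38.p6, run 5′ to 3′ along the gene and hold 250 bases before and 50 after the start. Capitals mark matches to 4 short motifs, searched on both strands: CAGAC, a half-site bound by SMAD3 and SMAD4, TGANTCA, bound by AP-1 factors, the GC box GGGCGG, bound by SP factors, and the TATA box TATAAA. These were held by 49.6%, 7.81%, 35.7% and 13.6% of all 32851 promoters of the same length in the table. A match is a description of the letters only. Tgfbi lies at chr13:56609336-56609635 on the + strand. Furin has 2 starts, at chr7:80402763-80403062 and chr7:80405387-80405686, both on the - strand. Ltbp2 lies at chr12:84876442-84876741 on the - strand and Ltbp3 at chr19:5740650-5740949 on the + strand.
Tgfbi: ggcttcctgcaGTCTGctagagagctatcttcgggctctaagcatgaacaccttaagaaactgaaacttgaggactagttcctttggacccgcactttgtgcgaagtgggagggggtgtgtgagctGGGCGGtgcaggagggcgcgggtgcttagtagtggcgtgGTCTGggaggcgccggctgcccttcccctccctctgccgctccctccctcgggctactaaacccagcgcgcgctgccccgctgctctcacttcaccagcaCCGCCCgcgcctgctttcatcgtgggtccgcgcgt
Furin, start at the lower coordinates: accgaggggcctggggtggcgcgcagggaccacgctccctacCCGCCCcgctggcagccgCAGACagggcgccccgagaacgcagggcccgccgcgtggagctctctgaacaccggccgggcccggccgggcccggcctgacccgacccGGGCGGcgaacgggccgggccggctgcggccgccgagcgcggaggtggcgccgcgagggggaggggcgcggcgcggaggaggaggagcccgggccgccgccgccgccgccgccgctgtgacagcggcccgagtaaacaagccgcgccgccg
Furin, start at the higher coordinates: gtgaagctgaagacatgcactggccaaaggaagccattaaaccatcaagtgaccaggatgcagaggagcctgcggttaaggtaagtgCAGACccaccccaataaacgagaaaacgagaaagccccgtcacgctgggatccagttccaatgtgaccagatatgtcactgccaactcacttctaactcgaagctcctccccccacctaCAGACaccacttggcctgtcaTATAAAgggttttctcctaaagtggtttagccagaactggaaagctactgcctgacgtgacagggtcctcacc
Ltbp2: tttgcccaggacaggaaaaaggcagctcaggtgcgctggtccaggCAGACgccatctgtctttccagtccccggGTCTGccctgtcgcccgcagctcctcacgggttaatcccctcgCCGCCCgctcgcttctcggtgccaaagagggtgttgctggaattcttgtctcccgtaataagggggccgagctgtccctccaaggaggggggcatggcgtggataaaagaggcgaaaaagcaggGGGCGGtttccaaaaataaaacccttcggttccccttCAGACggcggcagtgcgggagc
Ltbp3: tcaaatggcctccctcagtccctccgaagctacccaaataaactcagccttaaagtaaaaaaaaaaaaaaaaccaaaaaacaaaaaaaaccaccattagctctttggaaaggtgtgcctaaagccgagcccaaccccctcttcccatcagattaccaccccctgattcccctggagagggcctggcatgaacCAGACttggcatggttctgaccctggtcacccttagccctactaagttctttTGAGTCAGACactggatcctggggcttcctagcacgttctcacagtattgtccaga

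The Tgfbi window held 2 CAGAC matches and 2 GC boxes. The Furin windows held 1 CAGAC match and 2 GC boxes in the one and 2 CAGAC matches and a TATA box in the other. Ltbp2 had 3 CAGAC matches and 2 GC boxes. Ltbp3 had 2 CAGAC matches and 1 AP-1 match, whose last letters overlap the second CAGAC. At a share of 49.6% of all promoters, a CAGAC match does not set these genes apart.

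The harvests differed for the genes of 2 binding proteins. Ltbp3 was 2.72-fold lower in harvest 3 than in the mean of harvests 1 and 2 (adjusted p = 0.0158 by limma's moderated F test over the 3 harvests, 2 arrays each), and Ltbp2 was 2.29-fold lower (adjusted p = 0.0227). These 2 of 9 passed, against 3.06% of all genes and transcripts tested (893 of 29192, of which 709 were lower in harvest 3). The second Ltbp3 probe was 1.28-fold lower (adjusted p = 0.263 over all probes), and with the mean of both probes the adjusted p was 0.0482. The Ltbp2 call was lost with normexp (adjusted p = 0.615). Tgfbi lay the other way, 1.85-fold higher in harvest 3 (adjusted p = 0.0521), and it passed with quantile normalization (0.0428), on the matrix values (0.00917), with normexp (0.0244) and among probes well above background on all 6 arrays (0.0349). For Tgfb3 harvest 2 was the one apart, with harvest means of -1.85, -0.97 and -1.98 (adjusted p = 0.0833). Both arrays of harvest 1 were on slide 1 and both of harvest 2 on slide 2, with harvest 3 on both slides. Between harvests 1 and 2, harvest and slide therefore cannot be told apart. Thbs1 differed by 0.11 on the log2 scale (adjusted p = 0.84) and Furin by 0.18 (adjusted p = 0.384). In RNA from whole cultures, fewer cells of a type and less RNA per cell cannot be told apart.

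Markers of other cells also differed between harvests. Of the 15 mesenchymal markers 13 were lower in harvest 3 than in the mean of harvests 1 and 2, with a median log2 difference of -0.96. Dcn, a small matrix proteoglycan, was 47.8-fold lower (adjusted p = 0.00109 by limma's F test over the harvests). Their summed signal, in percent of the array's 75th percentile, was 7127, 12960 and 5472 in untreated replicates 1 to 3 and 8279, 13300 and 5095 in treated ones, so it was lowest in harvest 3 in both groups. Vim was the brightest of the 15, and with Acta2 it made up most of the sum in harvest 3. Neither was called between harvests (adjusted p = 0.178 and 0.483 by limma's F test), so the level of the sum in harvest 3 is mostly that of uncalled markers. In both groups the sum was highest in harvest 2 and lowest in harvest 3, an order that the called markers shared. Pdgfra, which marks fibroblasts and stroma, was well above background on only 1 of the 2 harvest 3 arrays and on all 4 others. All 8 measured megakaryocyte and platelet markers were also lower in harvest 3, with a summed signal of 2236 and 1975 there against 6206 to 7500 on the other arrays. Of these 8, 3 were called between harvests, against 3.06% of all tested, and Vwf was lower by a log2 value of only -0.0066. Most of this sum is Pf4, with an untreated mean of 5.34 against 1.255 for Itga2b, the next brightest. All 8 granulocyte markers were higher in harvest 3, 4 of them at an adjusted p under 0.05. Of 7 monocyte and macrophage markers 5 were higher in harvest 3, with Csf1r 2.35-fold higher (adjusted p = 0.0226), Cx3cr1 2.97-fold higher (0.0731) and Mrc1 lower by a log2 value of -2.08 (0.00536). Csf1r and Cx3cr1 were also higher in every treated sample than in its pair (0.39, 0.47 and 0.33, and 1.25, 0.75 and 1.71 on the log2 scale), though neither passed (adjusted p = 0.274 and 0.118 by limma). The other 5 of these 7 markers had negative changes, 2 of them in all 3 pairs, and the list's median was -0.08. The part of these cells in the Ltbp2, Ltbp3 and Tgfbi differences was not tested.

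**Figure D4:**
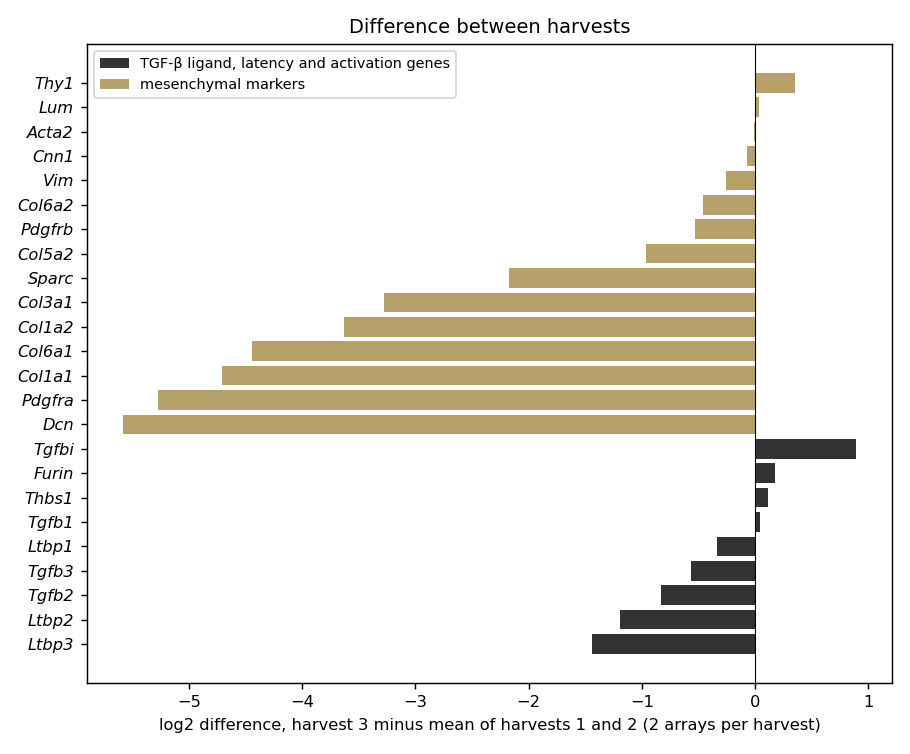
Log2 difference between harvest 3 and the mean of harvests 1 and 2 (horizontal axis, 2 arrays per harvest) for the 9 genes (dark) and 15 mesenchymal markers (light). Ltbp3 and Ltbp2 have the most negative values of the 9 and Tgfbi the most positive, and Dcn and Pdgfra have the most negative values of the markers.

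For Thbs1 the 2 harvest 3 arrays, at -0.49 and -1.78, lay between the values of the other harvests in each group. The summed megakaryocyte and platelet signal, mostly that of Pf4, ran from 2236 to 7500 on untreated and from 1975 to 6696 on treated arrays. Of its 8 markers 0 passed between the groups by limma with or without the block. At an unadjusted p under 0.05, 1 was higher and 1 lower with it and 0 without it. Of the mesenchymal markers 0 of 15 passed between the groups in either fit, also unadjusted. The summed signal of 5 mast cell markers was lower in each treated sample than in its pair (1516, 2100 and 1460 untreated against 1144, 1715 and 1132 treated), with 0 of 5 called by limma (2 lower at an unadjusted p under 0.05 with the block, 1 without it). Most of this sum is Cpa3, with an untreated mean of 3.99 against -1.17 for Fcer1a, the next brightest. Of the 5, 3 had negative changes and 2 positive ones, Mcpt4 (0.21) and Tpsb2 (0.29). Over all 29192 tested, 3173 had an unadjusted p under 0.05 by limma with the block and 1684 without it. The part of mast cells in the Thbs1 difference was not tested.

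Among other genes of latency and activation, 1 integrin gene passed. Of 40 listed genes 36 were measured (Lrrc32 and Itgb8 were not matched to a probe), and 1 was called higher and 0 lower, with or without the block. At an unadjusted p under 0.05 these counts were 5 and 2 with the block and 2 and 1 without it. Over all 29192 tested, 3173 had such a p with the block and 1684 without it. The gene called was Itgb5, the β5 subunit that pairs with the αv chain into an integrin able to bind and activate latent TGF-β. It was 3.43-fold higher (1.78 on the log2 scale, SE 0.12, adjusted p = 0.0246 by limma with the block and 0.00927 without it), with pairs of 1.77, 1.63 and 1.94 and 1.75 and 1.76 within the 2 slides. The αv chain itself, Itgav, had 0.37 (SE 0.16, adjusted p = 0.517), and Itgb3, which also pairs with it, had 0.14 (SE 0.16, adjusted p = 0.861). The list's median was 0.06, against -0.01 over all genes tested.

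Nrros, which encodes a membrane anchor of latent TGF-β on myeloid cells, was lower by a log2 value of -0.78 (SE 0.13, adjusted p = 0.118 by limma) with all 3 treated arrays below the untreated ones. The fourth binding protein, Ltbp4, had 0.20 (SE 0.16), the convertase Pcsk7 had -0.04 (SE 0.13) and the urokinase gene Plau -0.07 (SE 0.16). The matrix protease Mmp14 and fibronectin (Fn1) had 0.07 (SE 0.10) and 0.12 (SE 0.15). Mmp14 was 61.3-fold lower in harvest 3 than in the mean of the other two, and Fn1 was well above background on 1 of 2 harvest 3 arrays and on all 4 others. Differences between harvests were called for 11 of the 36 genes, against 3.06% of all tested. Those 11 were all lower in harvest 3 than in the mean of harvests 1 and 2. So were 709 of the 893 genes called over all tested.

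Ligands of the wider TGF-β family gave no call. Of 30 listed genes 24 passed the filter on dim probes, and limma called 0 of them after adjustment, with or without the block. At an unadjusted p under 0.05, 0 were higher and 2 lower in either fit. Over all 29192 tested, 3173 had such a p with the block and 1684 without it. Inhba, the subunit of activin A, had -1.01 (SE 0.20, pairs -0.95, -0.56 and -1.50, adjusted p = 0.174), Gdf15, a stress-induced ligand, had 0.13 (SE 0.15) and Bmp4 0.05 (SE 0.14). The list's median was 0.05, and differences between harvests were called for 0 of the 24 (4 at an unadjusted p under 0.05).

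The genes whose signal over the 6 arrays was most like that of Thbs1, by Pearson's r among 1474 named genes well above background everywhere and with an SD of at least 0.5, were Il1r1 (r = 0.997), Gfi1 (0.997) and St8sia4 (0.991). Those most like Tgfbi were Notch1 (r = 0.994), Rgs2 (0.994) and B3gnt8 (0.993). St8sia4 and Gfi1 passed with and without the block, with log2 changes of -1.74 (adjusted p = 0.0264 and 0.0211 by limma) and -1.40 (0.0374 and 0.0268). Rgs2 had 1.33 and passed with the block only (0.029, and 0.403 without it). Il1r1, Notch1 and B3gnt8 passed in neither fit. These are descriptions over 6 arrays that share 2 treatments and 3 harvests.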

How the data were processed

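Cy3-labelled RNA was hybridised to Agilent arrays of design 014868 (build mm8) and scanned; per the file headers, spots were quantified by Feature Extraction 10.1.1.1. The deposited processed intensity is background-subtracted within the array and not scaled between arrays. The log2 values in the authors' matrix follow the log2 median spot signal (r at least 0.9995) with medians of 7.38 to 7.42. Limma is the tool named in the submitters' processing notes, and how the matrix was scaled is not stated there.

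The log2 processed intensity minus the array's 75th percentile over non-control spots was used. Spots of a probe were averaged without outlier flags, 0 spots were saturated, and 36384 of 41174 probes were well above background on at least 3 of 6 arrays. Names came from unversioned RefSeq accessions matched to the GRCm38.p6 table (23374 probes named, 17800 not). The passing probe of highest mean represented a gene, and other probes are given beside it.

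The treatment effect was fitted in limma 3.58.1 (R 4.3.3, two-sided, eBayes) with the replicate number as a block, Benjamini-Hochberg adjustment over all 29192 genes and transcripts and a threshold of 0.05. Harvests were compared by the moderated F test of the same fit. The numbers were taken as pairs because deviations from the group means correlated by 0.607, 0.777 and 0.545 within pairs, against -0.725 to 0.0712 otherwise. With the block, p-values for the treatment rest on the spread of the treated minus untreated difference over 3 pairs of 1 line. Without it they rest on the spread between the arrays of a group. The F test sets the differences between harvests against the spread left in the blocked fit. The normexp alternative (offset 50) used the median spot signal, since no mean signal is in the files. Members and lists were chosen with earlier results of these data known. Named beyond the members were the called genes of both pathway lists, a fixed set of well-known genes of these lists (1 of them is not reported here), 2 responders, marker genes in counts, and the 3 genes most like Thbs1 and Tgfbi. Ptprc, Kit, Cd34, Myb, Lhx2, Dcn, Pdgfra, Col5a2, Vim, Acta2, Pf4, Itga2b, Vwf, Csf1r, Cx3cr1, Mrc1, Cpa3, Fcer1a, Mcpt4 and Tpsb2 were named after their values were seen.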

Additional observations from a re-analysis of the deposited data

How the results depend on the processing

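The count of genes called, 190 with the replicate block (155 higher, 35 lower), differed by over 1.5 times in every setting tried. It was 124 with the mean over a gene's probes (110 and 14), 74 without the block (66 and 8), 56 when blocking on the slide (51 and 5), 369 with quantile normalization (294 and 75), 714 on the matrix values (513 and 201), 22 with no filter on dim probes (21 and 1) and 352 among probes well above background on all 6 arrays (279 and 73). With normexp and within slide 1 or slide 2 alone it was 0 by limma (2196, 1648 and 1220 at an unadjusted p under 0.05). Leaving out a pair or an array gave 7 to 55 genes (7 to 52 higher, 0 to 4 lower).

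Of the 9 genes 1 was called (1 higher, 0 lower), Tgfbi. Without the block it was Thbs1 (0 higher, 1 lower). The count was 2 with quantile normalization and on all-6-array probes (1 and 1, Tgfbi and Thbs1), 3 on the matrix values (2 and 1, with Furin), and 0 with normexp, no filter, the mean of probes, blocking on the slide, within either slide, and without any 1 pair or array (0 and 0). Harvest calls were 2 of 9, and 4 with normexp (Tgfb1, Tgfb2, Ltbp3 and Tgfbi), 3 with quantile normalization and 3 on the matrix values.

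Signs held in all 19 other settings for Tgfb3, Ltbp1, Furin, Thbs1 and Tgfbi. Tgfb2 turned to -0.31 with normexp. Ltbp2 had -0.036 with normexp and -0.25 within slide 2, and Ltbp3 -0.34 within slide 2, where the treated group holds the low harvest 3 array. With a pair or an array left out, Tgfb1 ran from -0.11 to 0.18, Ltbp2 from -0.12 to 0.67 and Ltbp3 from -0.091 to 0.87. Tgfb2 was 0.0022 without untreated replicate 3, Tgfb3 0.071 without treated replicate 2 and Ltbp1 -0.19 without treated replicate 3. Tgfb2 is limited by a signal close to background.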
